A study of Mus musculus with 2 samples.

Results

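The genes described here carry bile acids across the wall of the small intestine and sense them there. They are Slc10a2, Fabp6, Slc51a, Slc51b, Nr1h4, Fgf15, Nr0b2 and Gpbar1, chosen by name and found in the gene tables by Ensembl identifier, 8 of the 43346 Ensembl genes measured. Total RNA was sequenced from the whole-tissue intestine of 2 newborn mice (0 days old) of the strain B6NCrl, pup 1 and pup 2, littermates from 1 pregnancy. Both pups form 1 group with no treatment and no mutant allele named, and sex was not collected. The labels name the intestine as the tissue and no segment of it. Each library was made from 10 ng of RNA longer than 200 nt with exogenous spike-in transcripts added, and held 44568098 estimated reads in pup 1 and 34797495 in pup 2.

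Bile acids are made from cholesterol in the liver, reach the intestine with the bile and are taken back mainly in the ileum, the distal end of the small intestine. In the ileal enterocyte SLC10A2 brings them in across the brush border, FABP6 binds them in the cytosol, and the SLC51A and SLC51B subunits together export them across the basolateral membrane to the portal blood. The nuclear receptor FXR, encoded by Nr1h4, is activated by bile acids and in the intestine induces Fgf15, a hormone that lowers bile acid synthesis in the liver, and Nr0b2, which encodes the repressor SHP, while the membrane receptor TGR5, encoded by Gpbar1, senses bile acids at the cell surface.

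The exporter subunits and FXR were among the more abundant mRNAs of the newborn intestine, and the uptake carrier lay around the level at which a gene was called detected. Levels are in TPM, the authors' estimated reads per effective transcript length scaled to the same total in each library, so they compare genes per length. At 1 TPM or more in both pups, the level called detected here, were 6 of the 8 genes, and the share over the 21461 protein-coding nuclear genes was 59.1%. The 2 below it were Slc10a2, at 1.31 TPM in pup 1 and 0.31 TPM in pup 2, and Gpbar1, under 1 TPM in both. The 8 genes summed to 749.9 TPM in pup 1 and 833.9 TPM in pup 2. With 2 pups of 1 group an exact sign-flip test cannot go below p = 0.5, so no test is given and values stand per pup, with the mean ± SD over both. In whole tissue, fewer cells of a type and less RNA per cell cannot be told apart.

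**Figure D1:**
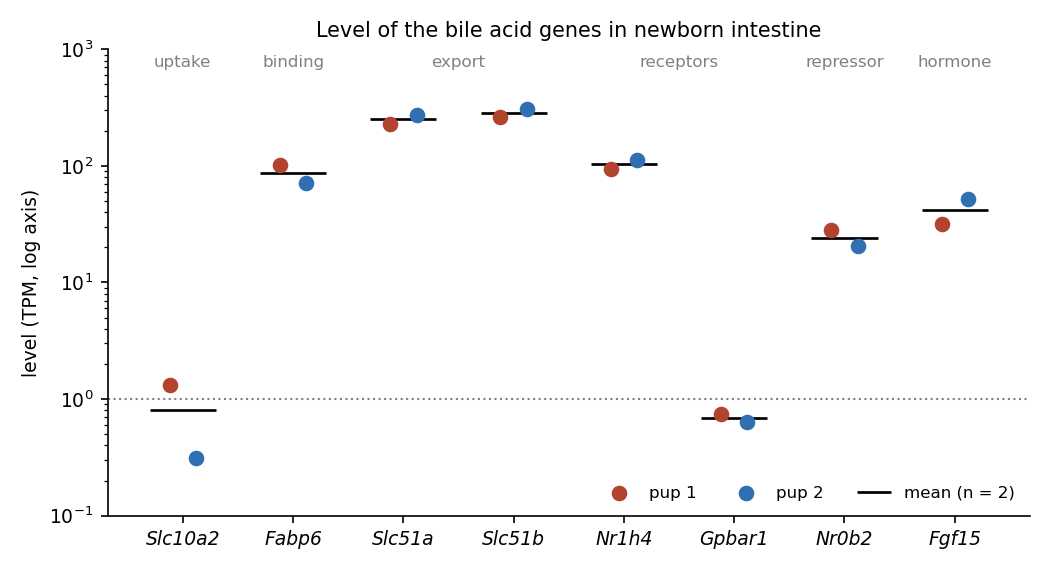
Level of each gene in TPM on a log axis, with pup 1 in red, pup 2 in blue and the mean of both as a bar, and the dotted line at 1 TPM. Slc51a and Slc51b stand highest in both pups, Slc10a2 lies on either side of the line and Gpbar1 lies under it.

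Slc10a2, the sodium-dependent carrier that takes bile acids up from the gut lumen (ENSMUSG00000023073.1, chromosome 8, bases 5083219 to 5105351, minus strand of GRCm38, which is mm10), had 1.31 TPM from 72 reads in pup 1 and 0.31 TPM from 13 reads in pup 2. Its mean was 0.81 ± 0.71 TPM (SD, n = 2), an SD close to the mean itself. Of all protein-coding nuclear genes it ranked 13220 by mean TPM. The gene model in the deposited tables was 1629 nt long, against 4152 nt for the same transcript in the later GENCODE M21 annotation, so the 2523 nt by which the later model is longer did not enter these values. Its liver relative Slc10a1, which takes bile acids into hepatocytes, had 0.42 TPM in pup 1 and 0.32 TPM in pup 2. Slc10a2 stood above Slc10a1 in pup 1 and level with it in pup 2, and the difference between them (0.70 ± 1.04 on the log2 scale of TPM + 0.1, mean ± SD over the pups) was within the spread.

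Among the 7 measured genes of the Slc10 family, 4 were detected in both pups, and Slc10a2 was not one of them. The highest was Slc10a3, at 14.7 TPM in pup 1 and 13.6 TPM in pup 2. Slc10a5 had 5.03 TPM in pup 1 and 5.97 TPM in pup 2, and Slc10a7 had 5.61 TPM in pup 1 and 5.26 TPM in pup 2. Each of these relatives was higher than Slc10a2 in both pups.

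Fabp6, the ileal bile acid-binding protein (ENSMUSG00000020405.4, chromosome 11, bases 43596049 to 43601540, minus strand), had 102.3 TPM in pup 1 and 70.96 TPM in pup 2, a mean of 86.6 ± 22.2 TPM (SD, n = 2). Fabp6 was 72.6 times Slc10a2 in pup 1 and 173 times in pup 2, 6.81 ± 0.89 on the log2 scale. The binding protein was thus far above the carrier that precedes it in the uptake path, by an amount that differed between the pups. It was the 4th highest of the 10 measured FABP genes, behind Fabp2 and Fabp1, the fatty acid-binding proteins of intestine and of liver and intestine, and the adipocyte form Fabp4. Fabp2 had 12825 TPM in pup 1 and 11961 TPM in pup 2, and Fabp4 had 177 TPM in pup 1 and 156 TPM in pup 2. At the other end Fabp9 and Pmp2 had no read and Fabp12 had 1 read in each pup. Fabp1 reached 12535 TPM in pup 1 and 11953 TPM in pup 2, which was 122 times Fabp6 in pup 1 and 168 times in pup 2.

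The 2 exporter subunits had the highest levels of the set. Slc51b, the single-span subunit (ENSMUSG00000053862.5, chromosome 9, bases 65412714 to 65422955, minus strand), had 262.2 TPM in pup 1 and 307.6 TPM in pup 2. Slc51a, the multi-span subunit (ENSMUSG00000035699.7, chromosome 16, bases 32474504 to 32487879, minus strand), had 229.5 TPM in pup 1 and 270.9 TPM in pup 2. Means were 284.9 ± 32.1 TPM for Slc51b and 250.2 ± 29.3 TPM for Slc51a (SD, n = 2 each), ranks 459 and 516 among protein-coding nuclear genes. Genes at 1 TPM or more had a median of 12.3 TPM in pup 1 and 12.8 TPM in pup 2, so both subunits lay far above the middle of the detected genes.

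The subunits kept nearly 1 ratio. Slc51b was 1.14 times Slc51a in each pup, 0.19 ± 0.0064 on the log2 scale, a difference larger than its spread between the pups. That order holds per length only: in counts scaled to library size only, the log2 ratio of Slc51b to Slc51a was -1.76, and the model of Slc51b in the tables was 488 nt long, that of Slc51a 1600 nt. In GENCODE M21 the same transcripts have 709 and 2618 nt, and the order with those models was not tested. Slc51a was 163 times Slc10a2 in pup 1 and 661 times in pup 2, and Slc51b was 186 times Slc10a2 in pup 1 and 750.5 times in pup 2. The exporter therefore stood above the uptake carrier in both pups, by 8.36 ± 1.43 for Slc51a and 8.55 ± 1.42 for Slc51b on the log2 scale, and by 7.17 and 7.36 with a pseudocount of 1 TPM in place of 0.1.

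The other carriers of bile acids were mostly low, with 4 of 9 detected in both pups and a median over the 9 of 0.42 TPM in pup 1 and 0.32 TPM in pup 2. The exception was Abcc2, an apical export pump for conjugated organic anions, at 69.7 TPM in pup 1 and 98.98 TPM in pup 2. Abcc3, a basolateral export pump, had 2.54 TPM in pup 1 and 3.09 TPM in pup 2. Abcb11, the bile salt export pump of the hepatocyte, had 2.25 TPM in pup 1 and 3.20 TPM in pup 2. The organic anion uptake carriers Slco1b2 and Slco1a4 stayed under 0.1 TPM in both pups, and Slco1a5 and Slco1a1 had no read, where a count of 0 allows up to 3 reads, or 0.0682 CPM (counts scaled to library size) in pup 1 and 0.0851 CPM in pup 2.

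Nr1h4, which encodes FXR (ENSMUSG00000047638.11, chromosome 10, bases 89454234 to 89533585, minus strand), had 94.3 TPM in pup 1 and 111.3 TPM in pup 2, a mean of 102.8 ± 12.1 TPM (SD, n = 2). It was the highest in both pups of the 47 nuclear receptor genes ranked here, a list without Nr1i2 and Nr1i3, which were also lower. The next was Nr1h2, which encodes the oxysterol receptor LXR beta, at 57.5 TPM in pup 1 and 59.5 TPM in pup 2. FXR binds DNA mostly as a heterodimer with a retinoid X receptor, and those genes were lower. Rxrb had 16.6 TPM in pup 1 and 14.8 TPM in pup 2, and Rxra had 7.23 TPM in pup 1 and 8.22 TPM in pup 2. Nr1h4 was 12.9 times Rxra in pup 1 and 13.4 times in pup 2, a ratio with little spread (3.71 ± 0.040 on the log2 scale). Rxrg was at 0.13 TPM in pup 1 and 0.19 TPM in pup 2. In its own NR1H subfamily 3 of 4 genes were detected, and the third of these, the LXR alpha gene Nr1h3, had 18.3 TPM in pup 1 and 18.2 TPM in pup 2.

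The tables hold 3 transcripts of Nr1h4 and 1 of each of the other genes. The Nr1h4 transcripts differ by where they start and by a 12 nt insert at an exon end (chromosome 10, bases 89483372 to 89483383) that adds 4 codons next to the DNA-binding domain. Reads across this exon end can differ between the isoforms by the insert, and reads of the first exons by the start. These lines show the spliced mRNA around the insert, from the GENCODE M21 transcripts on GRCm38, minus strand of the genome, 30 bases on each side, with the insert in capitals:
Nr1h4 without the insert: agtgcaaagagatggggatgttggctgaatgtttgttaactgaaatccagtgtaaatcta
Nr1h4 with the insert: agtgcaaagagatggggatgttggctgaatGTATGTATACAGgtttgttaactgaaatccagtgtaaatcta
The form without the insert that begins at the downstream first exon (ENSMUST00000058126.10, 484 codons) held most of the Nr1h4 output in both pups. Its share of the gene's TPM was 74.1% in pup 1 and 74.4% in pup 2 (69.9 TPM in pup 1 and 82.8 TPM in pup 2).

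The form with the insert that begins about 26.9 kb upstream (ENSMUST00000105297.1, 474 codons) held 21.8% in pup 1 and 22.5% in pup 2. The form with the insert at the downstream first exon (ENSMUST00000105296.4, 488 codons) held 4.08% in pup 1 and 3.09% in pup 2. Transcripts with the insert thus came to 25.9% of the gene in pup 1 and 25.6% in pup 2, a mean of 25.7 ± 0.18% (SD, n = 2), and most of that belonged to the upstream start. Of the output of the downstream start alone, the insert form was 5.21% in pup 1 and 3.99% in pup 2. That form is the least certain: its estimated count of 260.5 reads in pup 1 had a posterior SD of 123.6 reads, and its 178.7 reads in pup 2 had a posterior SD of 79.6 reads. No annotated transcript joins the upstream start to the form without the insert, so such a molecule could not be counted.

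**Figure D2:**
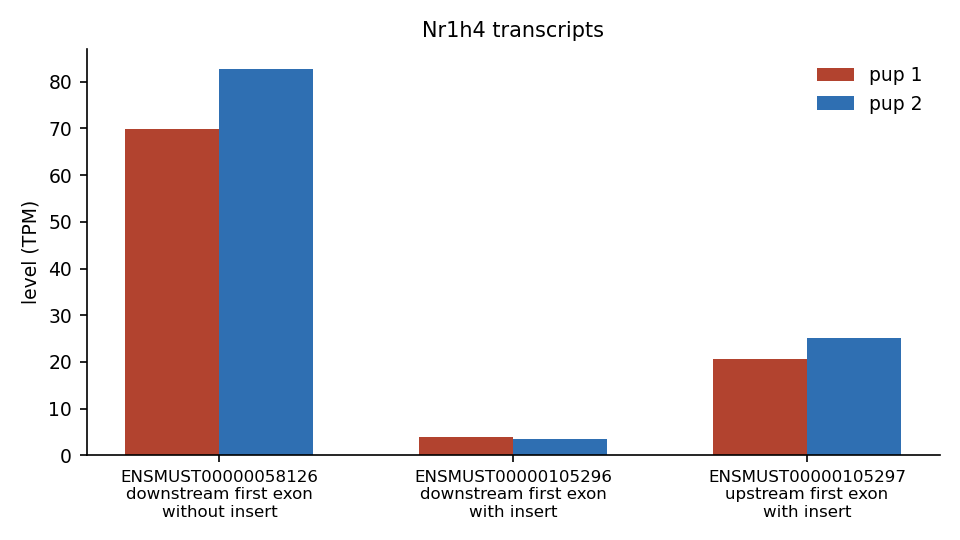
Level of the 3 annotated Nr1h4 transcripts in TPM, with pup 1 in red beside pup 2 in blue. The form without the insert reaches 69.9 TPM in pup 1 and 82.8 TPM in pup 2, and the insert form of the downstream start is lowest in both pups.

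Gpbar1, the cell-surface bile acid receptor TGR5 (ENSMUSG00000064272.3, chromosome 1, bases 74278550 to 74279624, plus strand), had 0.74 TPM from 26 reads in pup 1 and 0.63 TPM from 17 reads in pup 2, a mean of 0.685 ± 0.078 TPM (SD, n = 2). Nr1h4 was 112 times Gpbar1 in pup 1 and 153 times in pup 2. The nuclear bile acid receptor therefore lay above the membrane one by 7.03 ± 0.31 on the log2 scale, while Gpbar1 and Slc10a2 did not differ beyond their spread (-0.043 ± 1.12 for Slc10a2 over Gpbar1, of opposite sign in the 2 pups).

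Among 5 other genes for bile acid sensors 4 were detected, and the median of the list was 8.43 TPM in pup 1 and 8.04 TPM in pup 2. Nr1i3, which encodes the xenobiotic receptor CAR, had 24.8 TPM in pup 1 and 31.2 TPM in pup 2. Nr1i2, which encodes the pregnane X receptor, had 18.6 TPM in pup 1 and 20.9 TPM in pup 2. S1pr2, a membrane receptor for sphingosine 1-phosphate that also responds to conjugated bile acids, had 8.43 TPM in pup 1 and 8.04 TPM in pup 2. Vdr, the vitamin D receptor and a sensor of lithocholic acid, was 4.85 TPM in pup 1 and 5.22 TPM in pup 2, so that Nr1h4 was 19.1 times Vdr in pup 1 and 20.9 times in pup 2. Nr1h5, the FXR beta gene, had 0 TPM in both pups. All the sensors measured, in the 5 genes and Gpbar1, were thus below Nr1h4 in both pups.

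Nr0b2, which encodes the repressor SHP (ENSMUSG00000037583.2, chromosome 4, bases 133553376 to 133556536, plus strand), had 28.0 TPM in pup 1 and 20.5 TPM in pup 2, a mean of 24.2 ± 5.27 TPM (SD, n = 2). It was 10th by mean TPM of the 47 nuclear receptor genes ranked here. Nr1i3, which that ranking left out, had a higher mean of 27.975 TPM. Fgf15, the hormone gene (ENSMUSG00000031073.5, chromosome 7, bases 144896531 to 144900953, plus strand), had 31.7 TPM in pup 1 and 51.7 TPM in pup 2, a mean of 41.7 ± 14.1 TPM (SD, n = 2). Both FXR targets were below Nr1h4 itself, by -2.09 ± 0.48 for Nr0b2 and -1.34 ± 0.33 for Fgf15 on the log2 scale. Between them, Fgf15 was higher in both pups, 1.13 times Nr0b2 in pup 1 and 2.51 times in pup 2, but the difference of 0.75 ± 0.81 on the log2 scale was within the spread.

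Fgf15 was the highest of the 22 FGF genes measured. Fgf13, an intracellular family member, came next with 14.95 TPM in pup 1 and 16.1 TPM in pup 2, and Fgf9 followed with 4.56 TPM in pup 1 and 4.55 TPM in pup 2. Of the FGF genes, 4 were detected in both pups and 9 were under 0.1 TPM in both, among them Fgf4, Fgf6 and Fgf20 with no read. The genes through which FGF15 acts on its target cells were all detected, 5 of 5, with Fgfr2 at 24.5 TPM in each pup, Fgfr1 at 8.50 TPM in pup 1 and 9.00 TPM in pup 2, and Fgfr4, the main FGF15 receptor of the liver, at 3.23 TPM in pup 1 and 3.07 TPM in pup 2. The coreceptor gene Klb had 2.10 TPM in pup 1 and 3.01 TPM in pup 2.

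By mean TPM the order was Slc51b, Slc51a, Nr1h4, Fabp6, Fgf15, Nr0b2, Slc10a2 and Gpbar1. Neighbours differed beyond the spread between the pups from Slc51b to Slc51a, from Slc51a to Nr1h4 (2.43 times in each pup), from Fabp6 to Fgf15 (3.23 times in pup 1 and 1.37 times in pup 2) and from Nr0b2 to Slc10a2 (19.9 times in pup 1 and 50.3 times in pup 2). They did not from Nr1h4 to Fabp6, where Fabp6 was the higher in pup 1 and Nr1h4 in pup 2, nor from Fgf15 to Nr0b2 or from Slc10a2 to Gpbar1. The widest step was thus the one above the uptake carrier.

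The pups differed most in Slc10a2. Between-pup ratios were taken from estimated counts per effective library size, pup 1 over pup 2, with exact Clopper-Pearson intervals (95%) that cover counting error only and compare these 2 libraries. Slc10a2 was 4.44 times as high in pup 1 (interval 2.44 to 8.74). Of the genes with 50 reads or more over both pups and a read in each, 99.9% had a lower ratio. Genes without a read in 1 pup were left out of that share. It was the only one of the 8 whose interval lay wholly above 2-fold, beside 0.367% of the 19088 genes tested, and none lay wholly under the inverse of 2, beside 0.430%. Fabp6 was 1.51 times as high in pup 1 (1.38 to 1.65) and Nr0b2 1.43 times (1.29 to 1.58).

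Fgf15 went the other way and was 1.56 times as high in pup 2 (1.47 to 1.66), with 1.82% of genes at a lower ratio of pup 1 to pup 2. Slc51a, Slc51b and Nr1h4 had nearly the same ratio, 0.886 (0.864 to 0.909), 0.892 (0.851 to 0.935) and 0.886 (0.855 to 0.918). The interval of Gpbar1, 1.23 (0.641 to 2.41), held 1, so a difference was not detectable at its depth. In all, 3 intervals lay above 1, beside 16.6% of all genes tested, and 4 lay below 1, beside 13.0%. The median log2 ratio over the 8 was 0.06. Over the 15694 genes with 50 reads or more and a read in both pups it was 0.01, with 5% of them below -0.39 and 5% above 0.38. Slc10a2, Fabp6, Nr0b2 and Fgf15 thus lay outside the range that holds most genes, on both sides of it, and the exporter and receptor genes lay inside.

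**Figure D3:**
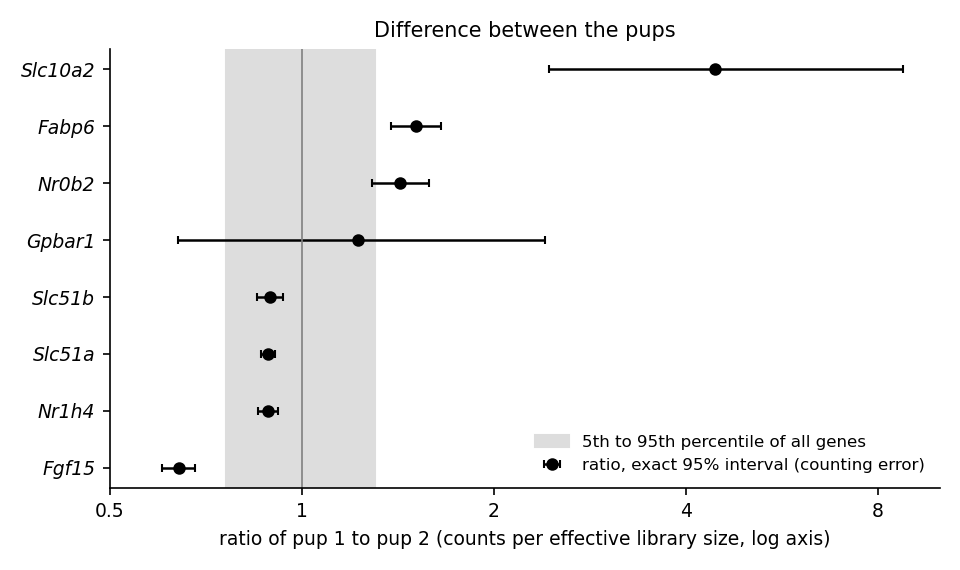
Ratio of pup 1 to pup 2 for each gene on a log axis, with exact 95% intervals for counting error, and in grey the 5th to 95th percentile over all genes with 50 reads or more and a read in both pups. Slc10a2 lies farthest to the right at 4.44, Fgf15 lies left of the grey band, and Slc51b, Slc51a and Nr1h4 lie within it.

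Posterior HOX genes, which mark the hind part of the gut, were as a summed list also higher in pup 1, as Slc10a2 was. The 16 genes of that list summed to 14.5 TPM in pup 1 and 2.41 TPM in pup 2, a count ratio of 7.07 (5.80 to 8.69). Of the 9 with enough reads, 6 were over 2-fold higher in pup 1, beside 0.367% of all genes tested. None of the 16 reached 1 TPM in both pups, Hoxb13, Hoxc12 and Hoxc13 had no read in either, and Hoxc9 was not higher in pup 1 (0.34 TPM in pup 1 and 0.46 TPM in pup 2). Hoxa10 had 6.23 TPM in pup 1 and 0.14 TPM in pup 2, Hoxa9 had 2.34 TPM in pup 1 and 0.85 TPM in pup 2, and Hoxd9 had 1.28 TPM in pup 1 and 0.52 TPM in pup 2. Of all protein-coding nuclear genes the one with levels nearest to Slc10a2 over the 2 pups was Hoxb9, at 1.24 TPM in pup 1 and 0.29 TPM in pup 2, a distance of 0.10 on the log2 scale.

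Genes of other gut regions differed in both directions. Colon markers, with 5 of 6 detected in both pups, summed to 112 TPM in pup 1 and 109.6 TPM in pup 2, a ratio of 0.983 (0.952 to 1.01) in which the abundant Slc26a3 weighs most. Gene by gene, 3 of the 6 were higher in pup 1 and 1 was lower by their intervals, with a median log2 ratio of 0.18. The colon carbonic anhydrase gene Car1 had 235 reads in pup 1 and 0 in pup 2. The water channel gene Aqp8 was 1.41 times as high in pup 1 (1.28 to 1.56) and the hormone gene Insl5 1.29 times (1.07 to 1.56). The anion exchanger gene Slc26a3 and Slc37a2 had ratios of 0.869 (0.834 to 0.906) and 0.945 (0.880 to 1.01). Distal small intestine markers, which include the ileal endocytosis genes Amn and Dab2 and the hormone gene Pyy, summed to 1063 TPM in pup 1 and 1135 TPM in pup 2, a ratio of 0.9497 (0.939 to 0.961), with 8 of 8 detected. By their intervals 3 of the 8 were higher in pup 1 and 2 lower, with a median log2 ratio of 0.08. Gcg, the proglucagon gene, was the highest at 1.37 (1.25 to 1.49), and the endocytic receptor gene Cubn the lowest at 0.818 (0.796 to 0.841). Proximal markers, led by the iron exporter gene Slc40a1, the hormone gene Gip and the lactase gene Lct, summed to 720.0 TPM in pup 1 and 800.9 TPM in pup 2, a ratio of 0.917 (0.908 to 0.927), with 7 of 7 detected. By their intervals 2 of the 7 were higher in pup 1 and 4 lower, with a median log2 ratio of -0.13 and the duodenal regulator gene Pdx1 lowest at 0.743 (0.650 to 0.849). Beside these lists, 16.6% of all genes tested were higher in pup 1 by their intervals and 13.0% lower. Proximal and distal small intestine markers were thus detected in both pups, while in pup 2 no posterior HOX gene reached 1 TPM and Car1 had no read. The part of these differences in those of Slc10a2, Fabp6, Nr0b2 and Fgf15 was not tested.

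**Figure D4:**
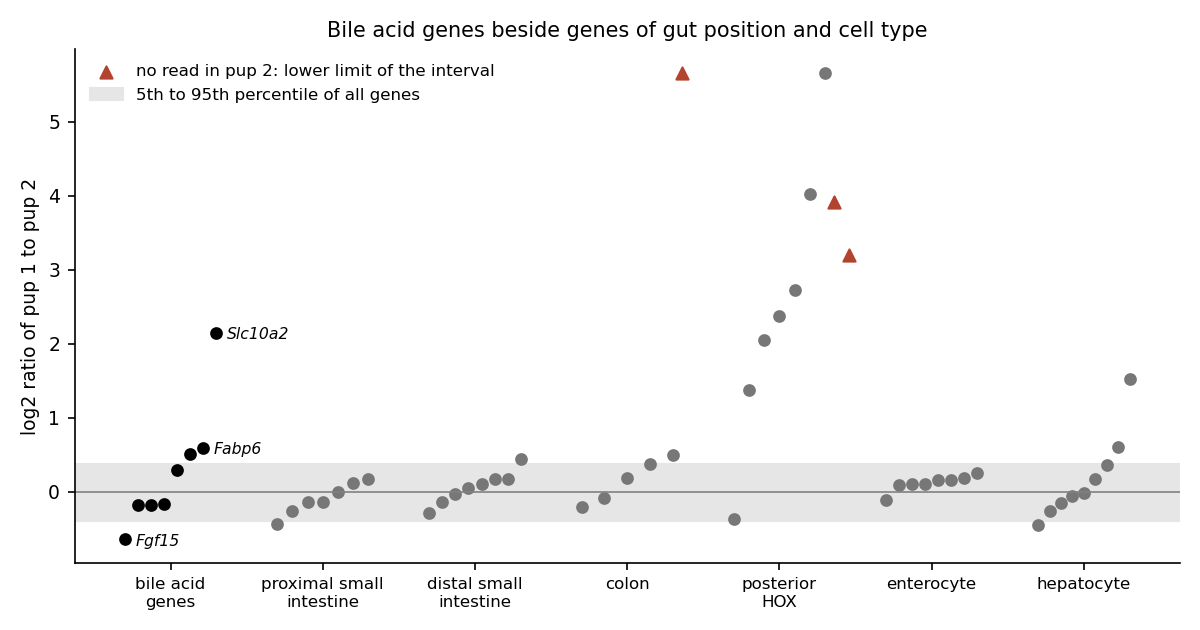
The log2 ratio of pup 1 to pup 2 for the 8 bile acid genes in black and for lists of region and cell type genes in grey, each point a gene with 10 reads or more. Red triangles are genes with no read in pup 2, drawn at the lower limit of their interval. The grey band runs over the 5th to 95th percentile of all genes with 50 reads or more and a read in both pups. Slc10a2 lies among the posterior HOX genes in height, and of the proximal, distal and enterocyte genes only Gcg (distal) and Pdx1 (proximal) lie outside the band.

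Enterocyte markers, with 8 of 8 detected and led by the apolipoprotein genes Apoa4 and Apoa1 and by Fabp2, summed to 70237 TPM in pup 1 and 65171 TPM in pup 2. Their count ratio was 1.14 (1.140 to 1.144), and by their intervals 7 of the 8 were higher in pup 1 and 1 lower. Of the bile acid genes, Fabp6 had 1.51 and Nr0b2 1.43, and on the other side of 1 Slc51a had 0.886, Slc51b 0.892, Nr1h4 0.886 and Fgf15 0.641. Among other tissues in which bile acid genes are active, hepatocyte markers were detected for 4 of 10 and summed to 362.9 TPM in pup 1 and 341.5 TPM in pup 2, nearly all of it Ttr (334.8 TPM in pup 1 and 309.8 TPM in pup 2), which other tissues also express, and the fibrinogen genes Fga and Fgb followed. The albumin gene Alb was 0.79 TPM in pup 1 and 0.86 TPM in pup 2, and the hepatocyte gene Cyp2e1 was under 0.1 TPM in both. Markers of the gallbladder and bile ducts, where Slc10a2 is also known to be expressed, were detected for 7 of 8 and summed to 544.9 TPM in pup 1 and 515.9 TPM in pup 2. Most of that was the keratin gene Krt19, at 435.9 TPM in pup 1 and 402.8 TPM in pup 2, which intestinal epithelium shares, followed by Krt7 and Sox9, and the list's mucin gene Muc5b was over 2-fold higher in pup 2 (0.02 TPM in pup 1 and 0.25 TPM in pup 2). Exocrine pancreas markers, led by Clps, Ctrb1 and Cela2a, were detected for 7 of 8, with Pnlip under 0.1 TPM in both pups. They were lower in pup 1, with sums of 207.8 TPM in pup 1 and 290.6 TPM in pup 2 and a ratio of 0.755 (0.727 to 0.783). Markers of macrophages, in which Gpbar1 is also expressed, were led by Csf1r, C1qb and Tyrobp, were detected for 8 of 8 and summed to 286.9 TPM in pup 1 and 283.6 TPM in pup 2, a ratio of 1.11 (1.09 to 1.14). Enteroendocrine markers, another site of Gpbar1, were led by Sct, Gip and Chgb and detected for 7 of 8, with sums of 484.8 TPM in pup 1 and 474.96 TPM in pup 2 and a ratio of 1.04 (1.02 to 1.07). Enteric neuron markers, a further site of Gpbar1, were led by Uchl1, Gap43 and Stmn2 and detected for 6 of 6, with sums of 157.8 TPM in pup 1 and 154.9 TPM in pup 2 and a ratio of 1.02 (0.989 to 1.05). The part of any of these cells in the levels of the bile acid genes was not tested.

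By the same measure of likeness, the nearest gene to Slc51b was Smim22 (distance 0.028), to Nr1h4 the pancreatic colipase gene Clps (0.025), to Slc51a Naaladl1 (0.071), to Fgf15 the gastrokine gene Gkn3 (0.085), to Nr0b2 Angptl4 (0.083) and to Gpbar1 Rims3 (0.039). Likeness over 2 pups rests on 2 values a gene and is a description of these libraries.

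Most genes for the partners of the pathway were present. Detected were 11 of 12 dimer partners and regulators, and their median was 14.6 TPM in pup 1 and 15.5 TPM in pup 2. Hnf4a, an activator of many enterocyte and hepatocyte genes, had 40.7 TPM in pup 1 and 42.4 TPM in pup 2. Nr3c1, the glucocorticoid receptor gene, had 29.0 TPM in pup 1 and 32.6 TPM in pup 2, and Cdx2, the intestinal homeobox gene, had 28.1 TPM in pup 1 and 31.3 TPM in pup 2. No gene of the list lay over 2-fold apart between the pups. Nuclear receptor coregulators were detected for 8 of 8 with a median of 5.88 TPM in pup 1 and 6.74 TPM in pup 2, led by the corepressor gene Ncor1 at 91.6 TPM in pup 1 and 111.6 TPM in pup 2. It was followed by the Mediator subunit gene Med1 at 20.2 TPM in each pup and by the arginine methyltransferase gene Carm1 at 9.46 TPM in pup 1 and 8.19 TPM in pup 2.

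Other described FXR targets were detected for 6 of 8, with a median of 9.46 TPM in pup 1 and 8.15 TPM in pup 2. Apoc2, a cofactor of lipoprotein lipase, reached 10082 TPM in pup 1 and 9109 TPM in pup 2. Il18, an epithelial cytokine gene, had 47.4 TPM in pup 1 and 55.97 TPM in pup 2, and Sdc1, a proteoglycan gene, had 34.9 TPM in pup 1 and 37.3 TPM in pup 2. Abcb4, the phospholipid flippase gene of the hepatocyte, was under 0.1 TPM in both pups. None of the 8 lay over 2-fold apart between the pups.

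Of 13 genes for the synthesis and conjugation of bile acids, 8 were detected, and the median of the list was 3.12 TPM in pup 1 and 4.06 TPM in pup 2. Cyp7a1, the rate-limiting enzyme of the classic route in the liver and the gene that FGF15 represses there, had no read in either pup. The highest were Scp2 (842.8 TPM in pup 1 and 858.0 TPM in pup 2) and Hsd17b4 (99.5 TPM in pup 1 and 101 TPM in pup 2), peroxisomal proteins that also serve fatty acid oxidation, and Hsd3b7 (30.01 TPM in pup 1 and 28.3 TPM in pup 2), a microsomal steroid dehydrogenase. The intestine of these pups thus held RNA for binding, export and FXR signalling, at very unequal levels, while the uptake carrier gene Slc10a2 reached 1 TPM in pup 1 only. The same libraries gave no read of Cyp7a1, the rate-limiting enzyme of the classic route, while other genes of synthesis were detected.

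**Figure D5:**
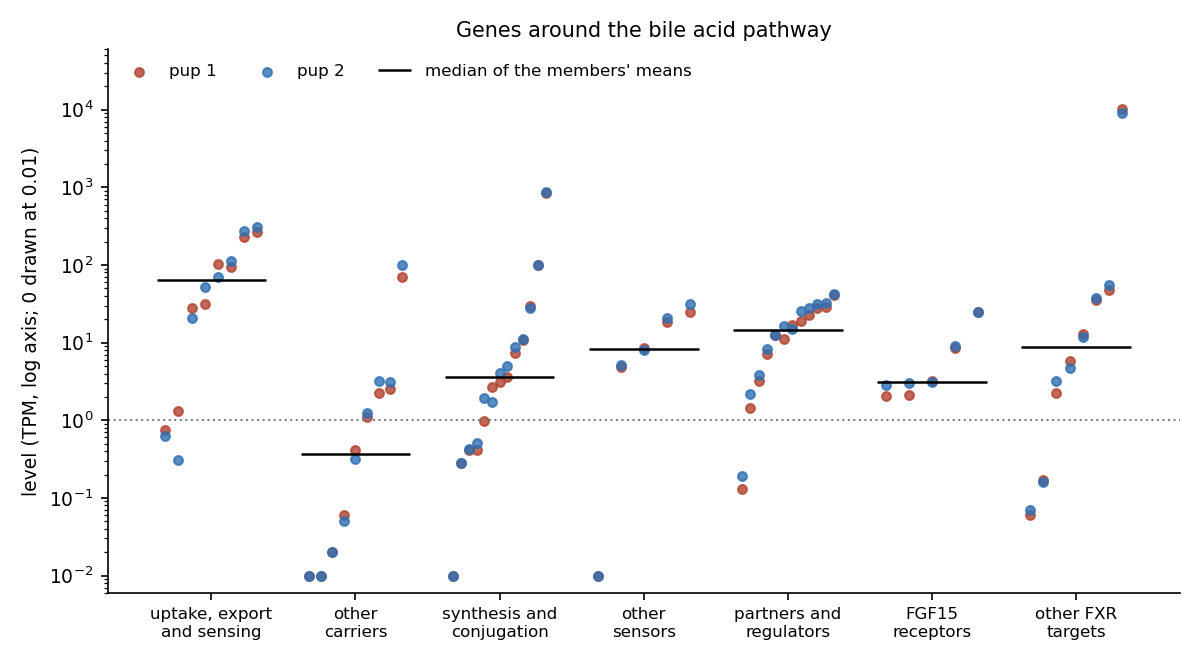
Level in TPM on a log axis of the 8 uptake, export and sensing genes and of 6 related lists, with pup 1 in red, pup 2 in blue, the median of each list as a bar, and genes at 0 drawn at 0.01. The exporter subunits stand above every other carrier but lie under Scp2 and Apoc2, and the other carriers have the lowest median.

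FXR binds an inverted repeat of the hexamer AGGTCA with 1 base between the copies. The promoter windows of RefSeq on GRCm38.p6, 250 bases before to 50 after each gene's start, were searched on both strands for AGGTNA or GGGTNA followed after 1 base by the inverse of either, a loosened form chosen with known FXR sites in mind and with the sequences at hand. It was found in 27 of 32851 windows (0.0822%) and in 2 of the 7 windows matched to these genes, those of Fabp6 and Slc51b. Fgf15 had no window and was not searched, and the window of Nr1h4 lay at its downstream start only. The stretches that hold it are shown with the repeat in capitals, 5′ to 3′ along each gene, on the minus strand of the genome, at chr11:43601563-43601812 for Fabp6 and chr9:65422948-65423023 for Slc51b:
Fabp6: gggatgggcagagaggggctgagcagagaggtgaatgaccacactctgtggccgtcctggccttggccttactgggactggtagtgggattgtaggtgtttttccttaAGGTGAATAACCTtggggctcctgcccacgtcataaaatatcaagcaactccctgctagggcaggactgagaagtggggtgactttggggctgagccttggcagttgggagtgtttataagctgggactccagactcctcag
Slc51b: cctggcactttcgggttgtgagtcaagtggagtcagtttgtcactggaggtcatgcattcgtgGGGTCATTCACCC
The Fabp6 repeat begins 142 bases before the RefSeq start. The Slc51b repeat begins 187 bases before the RefSeq start and overlaps the first bases of the GENCODE model, whose start lies farther upstream. Fabp6 and Slc51b had ratios between the pups on either side of 1 (1.51 and 0.892). The single hexamer AGGTCA was in 16.3% of all windows and in 3 of the 7 (Slc51a, Slc51b and Nr1h4). CAAGGNCA, the site read by the nuclear receptor NR5A2, was in 6.71% of all windows and in 3 of the 7 (Fabp6, Slc51a and Nr0b2). A match describes letters in a window and not a bound site.

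Genes on the opposite strand overlap exons of 3 of the 8, and no source read here says whether reads were counted by strand. In GENCODE M21 models, Pcyt1a, with 10235 reads in pup 1 and 8270 in pup 2, overlaps 567 of the 2618 exonic bases of Slc51a, and the older, shorter model used in the tables may not reach as far. Rasl12 (348 reads in pup 1 and 300 in pup 2) overlaps 91 of 709 exonic bases of Slc51b. Gm26793 (164.85 reads in pup 1 and 139.8 in pup 2) overlaps 479 of 1810 exonic bases of Fgf15, which had 1946 estimated reads in pup 1 and 2434 in pup 2. Fgf15 was also the one gene of the 8 whose estimate was not a whole number of reads, with a posterior SD of 5.31 reads in pup 1 and 4.53 reads in pup 2. Gm26793 likewise had estimates that were not whole numbers in both pups. The other 7 genes, Slc51a and Slc51b among them, had whole estimates with a posterior SD of 0 in both pups, and the estimates of Pcyt1a and Rasl12 were whole too. How reads were divided between Fgf15 and Gm26793 was not tested.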

How the data were processed

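Gene and transcript tables, 1 of each per pup, were used as deposited. Per the file headers, the authors gave expected counts (estimated reads, divided where features share them), posterior means and posterior SDs of those counts, TPM per effective length, transcript lengths in nt and transcript shares within a gene in percent. A text file deposited beside them names mm10 and GENCODE M4. Which aligner, quantifier and strand setting were used is not given in these sources. Names and positions came from GENCODE M21 (GRCm38), matched for 42462 of 43346 genes.

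Counts were rounded, library sizes scaled by TMM (edgeR 4.0.16, R 4.3.3; DESeq2 1.42.0 as an alternative), and the ratio of pup 1 to pup 2 with its interval (scipy 1.17.1) computed for genes with a summed count of 10 or more. The calculation was tested on simulated counts that held counting error only, so that run does not bear on variation between animals. Pair ratios are log2 of TPM + 0.1 within each pup, beyond the spread where the mean exceeds 1 SD and the sign is shared.

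The genes and the 23 lists (195 genes, all measured) were chosen with earlier results of these data known. Named were the 8 genes, the genes of the pairs, the top 3 of each list, up to 3 of its genes under 0.1 TPM in both pups, and the nearest gene to each of the 8, of which 1 is not reported here. Slco1a1, Rxrb, Rxrg, Klb, Car1, Insl5, Gcg, Cubn, Pdx1, Hoxc9, Alb and Muc5b fall outside that rule and were named after their values were seen. Summed cell type lists are descriptions. Replicates are separate littermates, and intervals cover counting error only.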

Additional observations from a re-analysis of the deposited data

How the results depend on the processing

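Of 178 recomputed values, 48 left out 1 pup. Rescaling TPM over protein-coding nuclear genes, 1 factor per pup that cannot alter the order within it, put mean levels at 1.03 TPM for Slc10a2 (0.81 before) and 53.1 for Fgf15. It raised Fabp6 to 110.5, Slc51a to 319, Slc51b to 363, Nr1h4 to 131, Nr0b2 to 30.9 and Gpbar1 to 0.874 TPM. In counts scaled to library size only, without length, the log2 ratio of Slc51b to Slc51a turned to -1.76, and ratios became 6.61 (Slc51b to Slc10a2), 4.85 (Fabp6 to Slc10a2), 7.92 (Nr1h4 to Gpbar1), -2.95 (Nr0b2 to Nr1h4), 2.38 (Nr1h4 to Rxra) and 3.23 (Nr1h4 to Vdr). With a pseudocount of 1 TPM they were 7.17 (Slc51a to Slc10a2), 7.36 (Slc51b to Slc10a2), 5.63 (Fabp6 to Slc10a2), 5.94 (Nr1h4 to Gpbar1), 3.57 (Nr1h4 to Rxra) and 4.10 (Nr1h4 to Vdr). As ratios of TPM, pup 1 over pup 2 was 0.847 for Slc51a and 0.847 for Nr1h4. The main Nr1h4 transcript held 73.7% from posterior mean TPM and 73.8% of estimated counts, and the insert form of the downstream start 4.32% from posterior mean TPM. No interval changed its side of 1 or of 2-fold with DESeq2 size factors, unscaled totals or posterior mean counts. At 1 TPM in pup 1 alone, 7 of the 8 genes were detected, against 6 in pup 2 alone. No paired analysis was possible because the pups form 1 group. Depth limits Slc10a2 and Gpbar1 most, with 72 and 26 reads in pup 1 and 13 and 17 in pup 2. The causes of these shifts were not tested.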
